A study of Mus musculus with 24 samples.

Results

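The matrix metalloproteinases (Mmp), their relatives of the Adamts and Adamts-like (Adamtsl) families and the tissue inhibitors of metalloproteinases (Timp) were examined across embryonic mouse jaws that lacked the receptor Alk5 in neural crest cells. Members were taken by symbol, as every gene named Mmp, Adamts or Adamtsl with a number and the inhibitors Timp1 to Timp4, with the probe set of the highest mean level standing for each gene. This gave 42 members of 18193 genes on the arrays: 18 Mmp, 15 Adamts, 5 Adamtsl and 4 Timp genes. A level here is the log2 signal of a microarray probe set, so 1 unit is a doubling, and levels were compared between samples and not between genes.

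Alk5, also called Tgfbr1, is the type I receptor for TGF-beta. Wnt1-Cre, which is active in the neural crest, removed the floxed Alk5 allele. Wnt1cre;Alk5fl/+ mice were crossed with Alk5fl/fl mice on a C57B6 background, and embryos were taken at embryonic day 14.5. Mutants were recognised by their cleft palate and calvarial defect, and the controls were littermates for which the labels give no further genotype. Each mandible and maxilla was cut into a distal and a proximal end, labelled as bone, which gave 8 groups of 3 arrays: control and mutant distal mandible, proximal mandible, distal maxilla and proximal maxilla. Nothing in the labels ties each array to an embryo of its own. The p-values therefore measure only how these arrays spread, which may be technical, and the number of arrays limits the precision. Every comparison of mutants with controls in a region uses the same control arrays as the comparison between jaws or ends of controls, so the results that follow are not independent of each other.

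Matrix metalloproteinases are zinc enzymes that are made as inactive precursors and cleave collagens, gelatins and other matrix proteins outside the cell. The Adamts enzymes cleave proteoglycans such as aggrecan and versican or trim procollagens, the Adamtsl proteins share their ancillary domains but have no protease domain, and the Timp proteins block the active sites of the enzymes. In the developing skeleton, Mmp13 of hypertrophic chondrocytes and osteoblasts and Mmp9 of osteoclasts take part in the replacement of cartilage by marrow and bone.

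The stretches upstream of several members are shown here because Mmp13 was the member with the largest change and because most of its neighbours on chromosome 9 were too dim to test. The 250 bases before the start of each gene come from RefSeq (mouse GRCm38.p6) and read 5′ to 3′ along the gene's strand. Capitals mark matches to the AP-1 motif TGAGTCA and to the RUNX motif ACCACA, searched on both strands (TGACTCA and TGTGGT); lower case marks every other base.
Mmp13 (chr9:7272264-7272513, + strand): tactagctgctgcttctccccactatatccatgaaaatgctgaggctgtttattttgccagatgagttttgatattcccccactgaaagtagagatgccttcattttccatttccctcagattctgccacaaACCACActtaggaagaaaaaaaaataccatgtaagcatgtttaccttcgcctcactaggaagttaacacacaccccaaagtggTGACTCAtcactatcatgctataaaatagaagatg
Mmp3 (chr9:7445572-7445821, + strand): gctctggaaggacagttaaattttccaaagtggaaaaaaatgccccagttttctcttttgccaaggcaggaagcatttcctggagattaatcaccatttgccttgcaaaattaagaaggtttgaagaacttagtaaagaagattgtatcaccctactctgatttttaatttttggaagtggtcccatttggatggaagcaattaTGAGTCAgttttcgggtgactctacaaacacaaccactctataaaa
Mmp10 (chr9:7502092-7502341, + strand): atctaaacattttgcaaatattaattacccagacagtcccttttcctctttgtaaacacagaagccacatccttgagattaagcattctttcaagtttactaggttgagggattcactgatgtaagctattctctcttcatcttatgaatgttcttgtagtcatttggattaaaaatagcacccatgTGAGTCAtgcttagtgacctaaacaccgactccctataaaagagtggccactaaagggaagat
Timp1 (chrX:20869916-20870165, + strand): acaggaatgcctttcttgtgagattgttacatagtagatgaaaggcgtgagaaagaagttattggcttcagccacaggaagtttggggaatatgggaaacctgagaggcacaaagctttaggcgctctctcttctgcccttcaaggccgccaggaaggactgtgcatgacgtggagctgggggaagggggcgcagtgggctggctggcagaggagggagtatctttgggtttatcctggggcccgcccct
Mmp11 (chr10:75932503-75932752, - strand): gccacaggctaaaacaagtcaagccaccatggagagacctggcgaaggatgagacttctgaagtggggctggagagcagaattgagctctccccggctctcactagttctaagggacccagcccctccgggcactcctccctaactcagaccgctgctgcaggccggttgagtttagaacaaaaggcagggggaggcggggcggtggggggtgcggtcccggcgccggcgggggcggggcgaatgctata
The Mmp13 stretch held a RUNX match 118 bases and an AP-1 match 35 bases before the start. The Mmp3 and Mmp10 stretches held an AP-1 match 46 and 63 bases before the start. The stretches of Timp1 and Mmp11, which changed in opposite directions in the mutants, held no match to either motif. Among 32851 mouse promoters of this length, 4.46% held the AP-1 motif and 14.0% held the RUNX motif. The members with an AP-1 match were Mmp1a, Mmp1b, Mmp3, Mmp7, Mmp10, Mmp12 and Mmp13, which is 7 of the 30 promoters found for 27 members. Those with a RUNX match were Mmp1b, Mmp7, Mmp13, Mmp14 and Mmp23, or 5 of the 30, a share near the 14.0% of all promoters. A match is a description of these letters and not of binding. All 7 members with an AP-1 match lie among 9 Mmp genes whose starts fall within 420077 bases of chromosome 9. Of those 9 genes, 7 were below the level needed for testing on these arrays.

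Of the 42 members, 32 passed the filter on low signal, which asked for a level above the array's 40th percentile (6.33 to 6.46) on at least 3 arrays. They were 10 Mmp, 14 Adamts, 4 Adamtsl and all 4 Timp genes. The stromelysins Mmp3 and Mmp10, the collagenases Mmp1a, Mmp1b and Mmp8, the macrophage elastase Mmp12, the enamel protease Mmp20, Mmp19, Adamts19 and Adamtsl4 did not pass. Across all 24 arrays their medians lay between 3.90 for Mmp1a and 6.06 for Mmp19, and the highest single value was 6.45 for Mmp10. Mmp7 and Timp4 passed with group means near the filter level.

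Several arrays stood apart and are named beside the results they touch. The mutant arrays numbered 3 of the distal and proximal maxilla correlated with their own group at 0.972 and 0.969, and with the mutant mandible of the same end at 0.976 and 0.981. Both had less signal of nasal epithelium genes than the other mutant maxilla arrays, with list means of 6.82 and 6.45 against 7.76 to 8.21. Mutant arrays numbered 1 and 3 carried both Xist (11.15 to 12.79) and Y-linked signal (8.86 to 9.74), whereas no control array carried both at such levels. Control arrays numbered 1 and mutant arrays numbered 2 had high Xist (13.03 to 13.67) and low Y-linked signal (3.88 to 4.14) in every region. Control arrays numbered 2 and 3 had low Xist (6.23 to 7.49) and high Y-linked signal (9.43 to 9.61). The targeted gene, Tgfbr1, was at 11.92 to 12.36 on the control arrays and at 12.20 to 12.57 on the mutant arrays, and its probe set may lie outside the deleted part, so it is no check of the labels. The tissue is labelled bone, and control list means were 8.99 to 12.67 for osteoblast genes. They were 9.76 to 12.37 for cartilage genes and 7.97 to 12.66 for skeletal muscle genes. For oral and skin epithelium genes they were 9.68 to 11.91, and for perivascular genes 10.27 to 11.21. The lists hold different probe sets, so these levels do not rank the tissues.

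More members differed between mutants and controls in the mandible than in the maxilla, and most of those in the mandible were lower. More of all tested genes differed in the mandible too. The share of members that passed was above that of all genes in every region. Whether this excess differed between jaws was not tested. In the distal mandible 12 of 32 tested members passed the test (limma, adjusted p under 0.05), 1 higher and 11 lower in mutants, where 16.0% of all tested genes passed, 8.02% higher and 7.98% lower. The proximal mandible had 16, 2 higher and 14 lower, against 19.9% of all genes, 9.56% higher and 10.4% lower. The distal maxilla had 3, 2 higher and 1 lower, against 2.96% of all genes, 1.84% higher and 1.12% lower. The proximal maxilla had 8, 5 higher and 3 lower, against 10.5% of all genes, 5.74% higher and 4.78% lower. The member medians were -0.31, -0.21, -0.03 and -0.06 log2 in that order, and the medians of all tested genes were 0.04, 0.04, 0.04 and 0.03.

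Averaged over the 4 regions, 20 members passed, 5 higher and 15 lower, where 40.6% of all genes passed, 25.2% higher and 15.3% lower. The count was 11 when the regions of a genotype and number were averaged first, and 15 with the number as a random block. The 40.6% of all genes belongs to the fit without blocks and is no background for these 2 counts. Adamts8 passed in all 4 regions. Adamts1, Mmp11 and Timp1 passed in 3 regions, and 10 members passed in 2. For 12 members no region passed, and their regional changes lay between -0.45 (Adamts15, distal mandible) and 0.59 (Adamts5, distal maxilla).

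**Figure D1:**
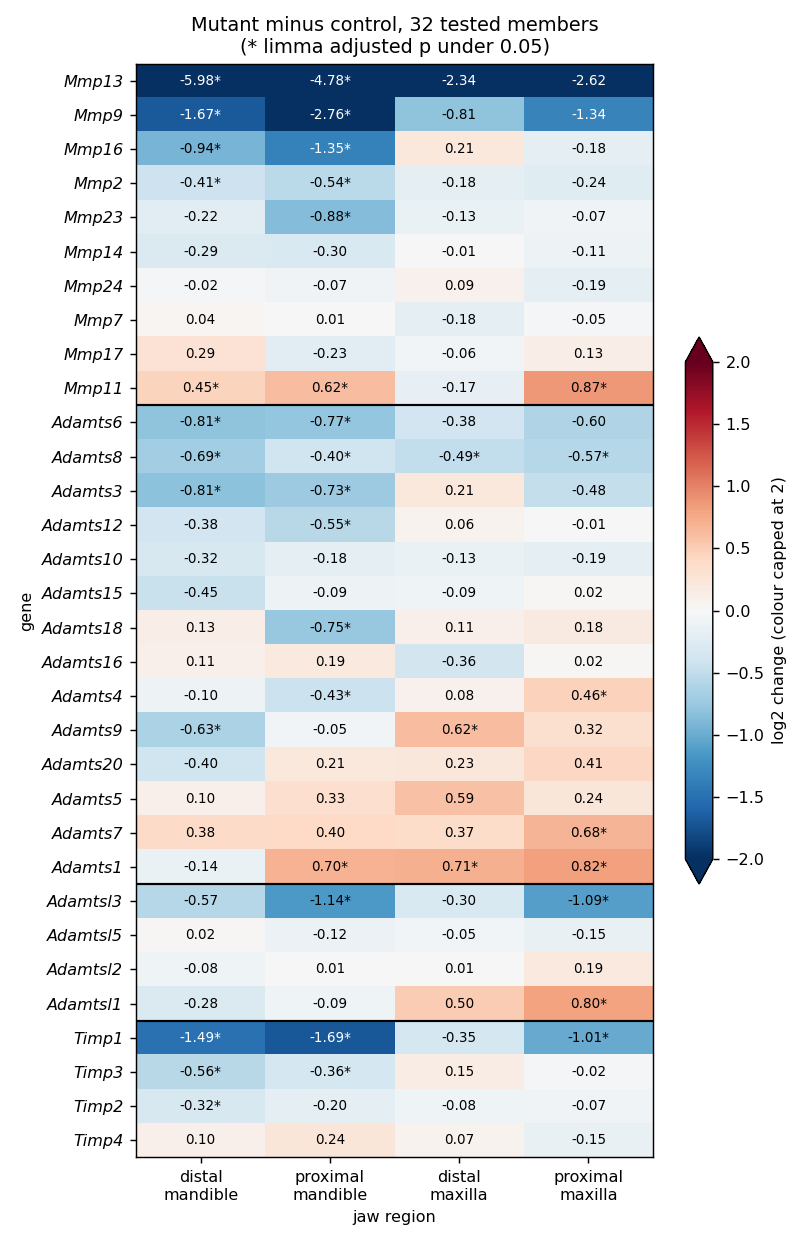
Mutant minus control log2 change of the 32 tested members (rows, ordered by family) in the 4 jaw regions (columns); the colour is capped at 2 log2 units and an asterisk marks an adjusted p under 0.05. Mmp13 fell by 5.98 log2 in the distal mandible, Timp1, Mmp9 and Mmp13 were below 0 in all 4 regions, and Mmp11 and Adamts1 were above 0 in 3.

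Mmp13, the collagenase of cartilage and bone, had the largest change of any member. In the control distal mandible its 3 arrays read 10.98, 11.28 and 11.79, and in the mutant they read 4.29, 4.41 and 7.41. In the control proximal mandible they read 11.06, 10.75 and 11.06, and in the mutant 4.11, 4.17 and 10.24. The mutant arrays lay below every control array of their region, and mutant array 3 of the proximal mandible came close to the controls. The change was -5.98 ± 1.62 log2 (SE) in the distal mandible, with a limma adjusted p of 0.0156, and -4.78 ± 1.62 in the proximal mandible, with 0.0425. Raising values below an array's filter level to that level, the controls were at least 25.2-fold higher in the distal mandible and at least 9.93-fold higher in the proximal mandible.

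In the maxilla the controls themselves spread widely. Control distal maxilla arrays read 9.33, 6.22 and 10.53 and mutants read 4.51, 4.33 and 10.23, and the groups overlapped. Control proximal maxilla arrays read 6.69, 4.59 and 9.43 and mutants read 4.17, 4.19 and 4.48, with no overlap. The maxilla changes of -2.34 and -2.62 log2 did not pass the test (adjusted p 0.408 and 0.321). In 3 of 4 regions the mutant array numbered 3 held far more Mmp13 than the other 2. Without the 4 mutant arrays of that number, an alternative chosen after these values were seen, the distal maxilla change was -4.28 log2 with an adjusted p of 0.0255 and the distal mandible change was -7.00 log2 with 0.000418.

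The distal mandible call was lost without control array 3 (adjusted p 0.0576), mutant array 1 (0.0613) or mutant array 2 (0.0703). The proximal mandible call was lost without any single control array of that region (adjusted p 0.0918 to 0.0979), without mutant array 1 (0.162) or mutant array 2 (0.177), when only the groups compared were fitted (0.0618) and with a sex score as covariate (0.0634). It was just lost without any control distal mandible array (0.0511 to 0.0516) or control proximal maxilla array 1 (0.0501). The mean over the 4 regions was -3.93 ± 0.81 log2 with an adjusted p of 0.000733, and it was 0.0577 with the regions averaged first as a replicate block.

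Osteoblast markers fell in 3 of the regions, and by array they followed Mmp13 in some groups and not in others. On the mutant proximal mandible array numbered 3, the osteoblast list of 5 tested genes had a mean level of 11.45, against 9.25 and 9.30 on the other 2. On the mutant distal maxilla array numbered 3 it was 11.06, against 8.75 and 8.80. In the mutant distal mandible the list was highest on array 1 (8.44, 7.09 and 8.19), whereas Mmp13 was highest on array 3. In the mutant proximal maxilla array 3 was highest for the list (7.71, 6.98 and 8.75) while its Mmp13 was 4.48. In the fit without blocks, all 5 tested genes of the list fell in the mean over regions. Among them was Dmp1, the osteocyte matrix protein, at -3.96 ± 0.61 log2 with a limma adjusted p of 4.55e-05. In the distal mandible the list ranged from 11.02 to 11.47 in controls and from 7.09 to 8.44 in mutants, with Dmp1 above the filter level on no mutant array. The hypertrophic chondrocyte list had 2 of 4 tested genes lower in the mean, Panx3 at -2.07 log2 and Ihh at -0.41 log2. By region, all 4 were called lower at the proximal end of the mandible (list median -0.87 log2) and 1 at its distal end (-0.33). For the maxilla the counts of lower genes were 2 proximally (-0.25) and 0 distally (-0.12). The defining marker of this list, Col10a1, was not above the filter level on any array. The part of these markers in the Mmp13 result was not tested, and fewer cells of a type and less RNA per cell cannot be told apart in bulk tissue.

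**Figure D2:**
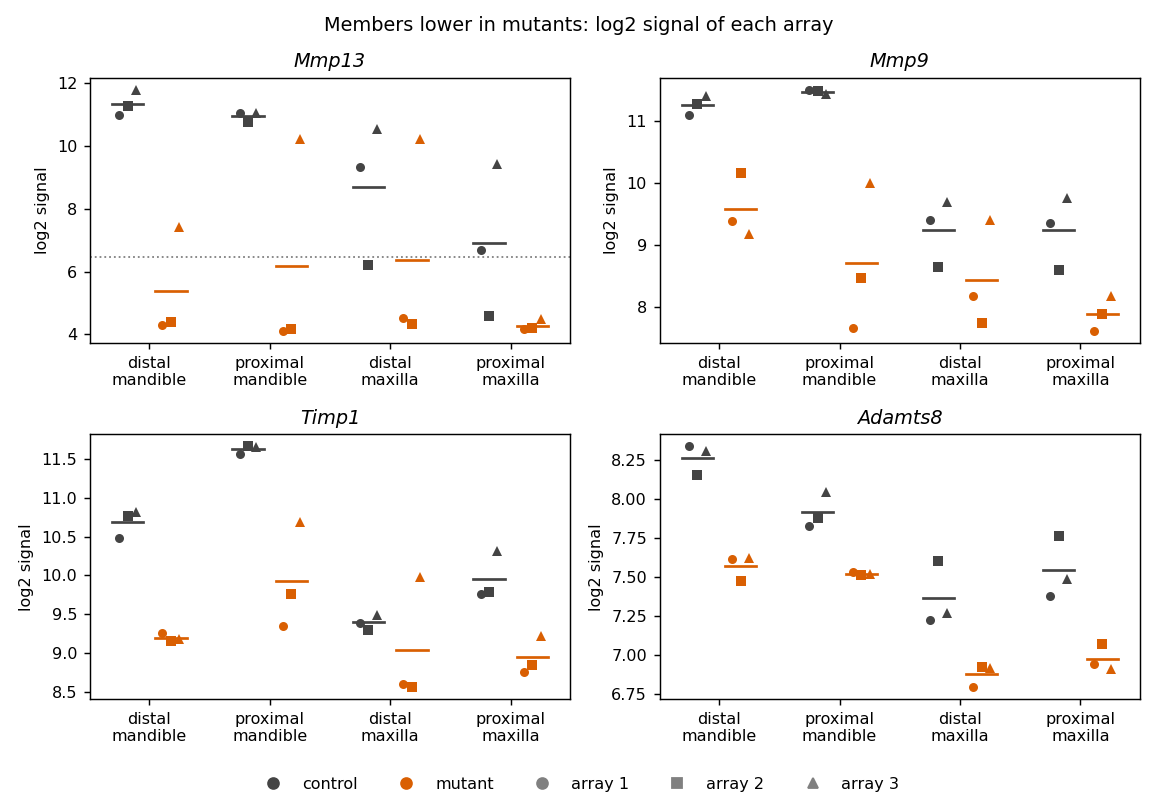
Log2 signal of Mmp13, Mmp9, Timp1 and Adamts8 on each array (points, shape by array number) in the 8 groups, with the group mean as a line; the dotted line in the Mmp13 panel is the filter level. The Mmp13 mean is lower in every mutant group, with mutant array 3 at 10.24 in the proximal mandible and 10.23 in the distal maxilla, and no mutant array of Adamts8 reaches a control array of its region.

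Mmp9, the gelatinase of osteoclasts, was lower in both mandible ends. Control distal mandible arrays read 11.10, 11.27 and 11.40 and mutants read 9.40, 10.16 and 9.19. Control proximal mandible arrays read 11.50, 11.49 and 11.43 and mutants read 7.67, 8.47 and 10.00, so the 3 control arrays lay far above every mutant array. The change was -1.67 ± 0.47 log2 (adjusted p 0.0192, 3.19-fold) in the distal mandible and -2.76 ± 0.47 (0.000348, 6.77-fold) in the proximal mandible. The distal call was lost when mutant array 1 or 3, or control array 2 or 3, was left out, with adjusted p from 0.0538 to 0.0742. In the maxilla the changes were -0.81 log2 (adjusted p 0.326) and -1.34 log2 (0.0726). The maxilla calls were reached without the 4 mutant arrays numbered 3, with adjusted p of 0.0287 and 0.0144. The proximal maxilla call was also reached with array weights (0.0255) and a fixed block (0.03345), but not with the number as a random block. It was reached as well without control proximal maxilla array 2, mutant distal maxilla array 3, or mutant proximal mandible array 1 or 3 (0.0279 to 0.0497).

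The osteoclast list was also lower in the mandible. Among mutant arrays it shared only its highest array with Mmp9 in the proximal end, and it ran in the opposite order in the distal end. Osteoclast genes fell in 5 of 6 tested genes in the mean over regions, with Atp6v0d2, a proton pump subunit, at -1.70 ± 0.12 log2 and Ctsk, the bone collagen protease, at -1.22 ± 0.14. The list mean in the proximal mandible was 9.09 to 9.34 on controls and 6.97 to 7.79 on mutants, and the highest mutant was array 3, which was also the highest for Mmp9. Mutant arrays 1 and 2 had nearly the same list mean there (6.99 and 6.97), whereas Mmp9 was higher on array 2 than on array 1. In the mutant distal mandible the list means were 6.93, 6.84 and 7.28, so array 2, the highest for Mmp9, was the lowest for the list, and array 3, the lowest for Mmp9, was the highest. Ocstamp and Calcr were above the filter level on no mutant mandible array, and Calcr was on no control mandible array either. Macrophage genes fell in 5 of 8, with proximal mandible list means of 9.14 to 9.28 in controls and 8.38 to 9.01 in mutants. Their part in the Mmp9 result was not tested.

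Mmp2, the gelatinase that Mmp14 activates, fell by less. Control distal mandible arrays read 12.54, 12.71 and 12.67 and mutants read 12.19, 12.25 and 12.25. Control proximal mandible arrays read 12.65, 12.72 and 12.64 and mutants read 11.95, 12.07 and 12.36, and in both ends no mutant array reached a control array. The changes were -0.41 ± 0.10 (adjusted p 0.00750) and -0.54 ± 0.10 (0.000596), and the maxilla changes of -0.18 and -0.24 did not pass. Mmp14, which activates pro-Mmp2 at the cell surface, passed only in the mean over regions, at -0.18 ± 0.07 log2 (adjusted p 0.0475). That call was kept in 5 of 24 fits that left out 1 array and was lost with the regions averaged first.

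Mmp16, a membrane-type metalloproteinase that spans the membrane, fell in both mandible ends. Control distal mandible arrays read 9.48, 9.55 and 9.68 and mutants read 8.74, 8.64 and 8.53. Control proximal mandible arrays read 10.37, 10.45 and 10.24 and mutants read 9.13, 8.65 and 9.21, and no mutant array reached a control array in either end. The changes were -0.94 ± 0.15 (adjusted p 0.000406) and -1.35 ± 0.15 (8.66e-06). In the distal maxilla controls read 9.03, 9.16 and 8.68 and mutants 9.21, 8.93 and 9.37, and in the proximal maxilla controls read 9.46, 9.82 and 9.68 and mutants 9.45, 9.64 and 9.33. The maxilla groups overlapped, with changes of 0.21 and -0.18. Mmp23, an unusual member held in the membrane by its N-terminal end, fell in the proximal mandible by 0.88 log2 (adjusted p 0.000324), from 8.91, 8.75 and 8.96 to 7.85, 7.99 and 8.15. The other membrane-type genes Mmp17 and Mmp24 had no region that passed.

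Tendon genes were lower mainly in the mandible too. In the distal and proximal mandible 4 and 5 of 5 tested tendon genes fell (medians -1.96 and -2.56 log2), and in the distal and proximal maxilla 1 and 2 did (-0.09 and -0.42). The tendon list mean in the proximal mandible was 9.90 to 10.03 in controls and 7.46 to 8.26 in mutants, and in the distal mandible it was 9.79 to 9.91 and 7.84 to 7.99. Scx, a defining transcription factor of tendon, was above the filter level on no mutant distal mandible array. The part of the tendon genes in the Mmp16 result was not tested.

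Mmp11, the stromelysin that furin activates inside the cell, was the Mmp that rose. Control distal mandible arrays read 9.83, 10.00 and 9.78 and mutants read 10.27, 10.30 and 10.40. Control proximal mandible arrays read 9.63, 9.44 and 9.57 and mutants read 10.04, 10.24 and 10.24. Control proximal maxilla arrays read 9.47, 9.53 and 9.13 and mutants read 10.11, 10.23 and 10.42, so in these 3 regions every mutant array was above every control array. The changes were 0.45 ± 0.10 (adjusted p 0.00438), 0.62 ± 0.10 (0.000211) and 0.87 ± 0.10 (3.50e-05). In the distal maxilla controls read 10.31, 10.20 and 10.30 and mutants 10.04, 10.04 and 10.21, and the change of -0.17 did not pass. The list of 6 oral and skin epithelium genes had medians of 0.48, 0.80, -0.35 and 0.55 log2 in the distal mandible, proximal mandible, distal maxilla and proximal maxilla, with 0, 2, 0 and 3 genes called, all higher. Its mean in the proximal mandible was 9.74 to 10.17 in controls and 10.55 to 11.06 in mutants. The part of these genes in the Mmp11 result was not tested.

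Among the Adamts enzymes, Adamts8, an aggrecan-cleaving member, was lower in mutants in every region. Its distal mandible arrays read 8.34, 8.16 and 8.31 in controls and 7.61, 7.48 and 7.62 in mutants, and its proximal mandible arrays read 7.83, 7.88 and 8.05 against 7.54, 7.52 and 7.52. Its distal maxilla arrays read 7.23, 7.61 and 7.27 against 6.80, 6.93 and 6.92, and its proximal maxilla arrays read 7.38, 7.77 and 7.49 against 6.94, 7.07 and 6.91. No group pair overlapped. The changes were -0.69 ± 0.11 (adjusted p 0.000318), -0.40 ± 0.11 (0.0124), -0.49 ± 0.11 (0.0211) and -0.57 ± 0.11 (0.00252), and the difference between jaws was not called. The distal maxilla call was lost when only the groups compared were fitted (0.331) or without mutant array 1 (0.116), the proximal mandible call without control array 3 (0.0673), and the proximal maxilla call when only the groups compared were fitted (0.0763).

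Adamts1, which cleaves versican and aggrecan, rose in 3 regions. Its proximal mandible arrays read 10.21, 9.97 and 10.19 in controls and 11.06, 10.43 and 10.96 in mutants. Its distal maxilla arrays read 9.56, 9.63 and 9.23 against 10.41, 9.95 and 10.20, and its proximal maxilla arrays read 9.92, 10.26 and 9.97 against 10.59, 10.88 and 11.14. All mutant arrays were above all control arrays there, and the changes were 0.70 ± 0.16 (adjusted p 0.00458), 0.71 ± 0.16 (0.0267) and 0.82 ± 0.16 (0.00365). The distal maxilla call was lost with only the groups compared (0.206) and without control array 3 (0.166) or mutant array 1 (0.161) of the region, and the proximal maxilla call with only the groups compared (0.0550). In the distal mandible, with 9.76, 9.98 and 9.78 in controls and 9.75, 9.76 and 9.59 in mutants, the change was -0.14 and did not pass.

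Adamts6, a relative of Adamts10 in the fibrillin branch of the family, fell in both mandible ends. Its distal mandible arrays read 7.69, 7.87 and 7.85 in controls and 7.16, 7.42 and 6.40 in mutants, and its proximal mandible arrays read 7.97, 7.90 and 7.68 against 7.05, 6.98 and 7.21. The changes were -0.81 ± 0.19 (adjusted p 0.00726) and -0.77 ± 0.19 (0.00762), with no overlap. In the maxilla the changes were -0.38 (adjusted p 0.259) and -0.60 (0.0524), both below 0.

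Adamts3, a procollagen N-propeptidase, also fell in both mandible ends. Its distal mandible arrays read 9.63, 9.54 and 9.54 in controls and 9.06, 8.80 and 8.40 in mutants, and its proximal mandible arrays read 9.79, 9.82 and 9.51 against 8.81, 8.98 and 9.12. The changes were -0.81 ± 0.24 (adjusted p 0.0249) and -0.73 ± 0.24 (0.0360). The distal call was lost without the 4 mutant arrays numbered 3 (0.119) and when any control array of the region, or mutant array 2 or 3, was left out (0.0595 to 0.115). The proximal call was lost without control array 1 or 2, or mutant array 1 or 2, of that region (0.0826 to 0.114).

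Adamts4, an aggrecanase, changed in opposite directions in the proximal ends. Its proximal mandible arrays read 9.71, 9.71 and 9.77 in controls and 9.26, 9.20 and 9.45 in mutants, a change of -0.43 ± 0.12 (adjusted p 0.0126). Its proximal maxilla arrays read 8.93, 9.28 and 9.00 in controls and 9.49, 9.39 and 9.72 in mutants, a change of 0.46 ± 0.12 (0.0158). The mutant arrays lay wholly below controls in the first region and wholly above them in the second. The mandible call was lost without mutant array 2 of the region (0.0599). The maxilla call was lost without both mutant maxilla arrays numbered 3 (0.0862), without the 4 mutant arrays of that number (0.0604), with only the groups compared (0.120), and without control array 1 (0.0743), control array 3 (0.0693) or mutant array 3 (0.103) of the region.

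Adamts9, which cleaves versican, fell in the distal mandible and rose in the distal maxilla. Its distal mandible arrays read 10.66, 10.61 and 10.68 in controls and 10.00, 9.82 and 10.22 in mutants, a change of -0.63 ± 0.12 (adjusted p 0.00161). Its distal maxilla arrays read 9.57, 9.32 and 9.23 in controls and 10.03, 9.94 and 10.01 in mutants, a change of 0.62 ± 0.12 (0.0120). The 3 Adamts9 probe sets past the filter ran from -0.16 to 0.62 in the distal maxilla, so the sign there rests on the probe set chosen, and the call was lost with only the groups compared (0.123) or without control array 3 (0.0623) or mutant array 1 (0.0672). In the mandible all 3 were below 0.

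Of the remaining Adamts genes, Adamts7, which cleaves Comp, was above 0 in all 4 regions and passed in the proximal maxilla, where arrays of 7.47, 7.62 and 7.30 in controls stood against 7.98, 8.12 and 8.34 in mutants (0.68 ± 0.15, adjusted p 0.00582, and 0.0595 with only the groups compared). Adamts12, its closest relative, fell in the proximal mandible from 9.80, 9.87 and 9.77 to 9.15, 9.07 and 9.56 (-0.55 ± 0.13, adjusted p 0.00553). Adamts18 fell there as well, from 8.13, 8.06 and 8.22 to 7.29, 7.43 and 7.44 (-0.75 ± 0.15, adjusted p 0.00114, and 0.0539 with the mean of all probe sets). Adamts10, Adamts15, Adamts16, Adamts20 and Adamts5 had no region that passed, although Adamts10 (-0.21) and Adamts5 (0.31) passed in the mean over regions, and neither call was kept with the regions averaged first as a replicate block (0.187 and 0.0871). Each was also lost when single arrays were left out, 11 of them for Adamts10 (0.0522 to 0.0667) and 5 for Adamts5 (0.0502 to 0.0531).

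Among the Adamtsl genes, Adamtsl3 fell in both proximal ends. Its proximal mandible arrays read 8.21 on all 3 controls and 6.84, 7.49 and 6.87 on mutants, and its proximal maxilla arrays read 7.89 on all 3 controls and 6.89, 6.92 and 6.58 on mutants. The changes were -1.14 ± 0.20 (adjusted p 0.000427) and -1.09 ± 0.20 (0.00194), a 2.21-fold and a 2.14-fold difference with wide gaps between groups. Its distal changes, -0.58 (adjusted p 0.0541) and -0.30 (0.383), did not pass, and the difference between ends was not called. The distal mandible call was reached with array weights (0.00213), a fixed (0.0187) or random block (0.0482), quantile normalization (0.0491) and a sex score (0.0403). It was also reached with only the groups compared (0.0271) and without certain single arrays, but not with other filters. The distal maxilla call was reached with array weights (0.042). The end difference was called with the regions averaged first as a replicate block (0.0423). Adamtsl1 rose in the proximal maxilla, from 8.12, 8.23 and 8.33 to 8.91, 8.83 and 9.35 (0.80 ± 0.16, adjusted p 0.00338), and the call was lost with only the groups compared (0.0547). Adamtsl2 and Adamtsl5 did not pass in any region.

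Among the inhibitors, Timp1 fell in 3 regions. Its distal mandible arrays read 10.48, 10.77 and 10.82 in controls and 9.26, 9.16 and 9.18 in mutants, and its proximal mandible arrays read 11.56, 11.66 and 11.65 against 9.35, 9.76 and 10.68. Its proximal maxilla arrays read 9.76, 9.79 and 10.32 in controls and 8.76, 8.85 and 9.23 in mutants. The changes were -1.49 ± 0.30 (adjusted p 0.00261), -1.69 ± 0.30 (0.000586) and -1.01 ± 0.30 (0.0399), which is 2.81, 3.23 and 2.02-fold, and no mutant array reached a control array.

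In the distal maxilla Timp1 read 9.39, 9.30 and 9.50 in controls and 8.60, 8.56 and 9.98 in mutants, and array 3 was the highest of the 6. Its change of -0.35 did not pass (0.518), and without the 4 mutant arrays numbered 3 it was -0.82 with an adjusted p of 0.00537. The proximal maxilla call was lost with only the groups compared (0.0517), with a sex score as covariate (0.0574), or without any single array of the region (0.0561 to 0.157). Timp1 is X-linked. The tendon, osteoblast and osteoclast lists given above were lower in the same mandible regions, and the osteoblast list had 3 of 5 genes lower in the proximal maxilla and none in the distal maxilla. Their part in the Timp1 result was not tested.

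Timp3, which stays bound to matrix and also inhibits Adamts enzymes, fell in both mandible ends. Its distal mandible arrays read 10.94, 11.28 and 11.12 in controls and 10.76, 10.56 and 10.34 in mutants, and its proximal mandible arrays read 11.28, 11.50 and 11.43 against 11.11, 10.93 and 11.09. The changes were -0.56 ± 0.12 (adjusted p 0.00440) and -0.36 ± 0.12 (0.0456), and the proximal call was lost with array weights, with no filter or with a sex score (0.0548 to 0.0857) and in 11 of 24 fits that left out 1 array (0.0501 to 0.160). Timp2, which helps Mmp14 activate Mmp2, fell in the distal mandible from 12.19, 12.32 and 12.32 to 11.91, 11.92 and 12.04 (-0.32 ± 0.09, adjusted p 0.0201), a call lost without control array 2 or 3 or mutant array 1 or 2 (0.0703 to 0.0784). Timp4 had no region that passed.

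The jaws differed in the effect of the mutation for 6 members, all with a more negative effect in the mandible, where 6.7% of all genes differed, 2.43% with a more positive and 4.27% with a more negative effect there. This test compares the mutant minus control change averaged over both ends between jaws. For Mmp16 the effect was -1.14 in the mandible and 0.02 in the maxilla, a difference of -1.16 ± 0.15 (adjusted p 0.000193). Adamtsl1 had -0.19 against 0.65, a difference of -0.84 ± 0.16 (0.00335), and Adamts9 had -0.34 against 0.47, a difference of -0.81 ± 0.12 (0.000555). The differences of Adamts4 (-0.54), Timp3 (-0.52) and Adamts12 (-0.49) were smaller. Mmp16, Adamtsl1 and Adamts9 kept the call under every alternative and with each array left out. The 3 Adamts9 probe sets past the filter ran from -0.83 to -0.07 for this difference, so its size rests on the probe set chosen. With the regions averaged first as a replicate block, the calls of Adamts4 (0.0809) and Timp3 (0.0917) were lost. The Timp3 call was also lost without the 4 mutant arrays numbered 3 (0.0650), and that of Adamts12 with quantile normalization (0.0526), without both mutant maxilla arrays numbered 3 (0.0848) and in 8 of 24 fits that left out 1 array (0.0559 to 0.0638). The count was 10 without mutant proximal mandible array 3. The same test called 4 of 6 osteoclast, 3 of 5 tendon, 4 of 8 macrophage and 2 of 7 muscle genes with a more negative effect in the mandible, and 3 of 4 nasal epithelium genes with a more positive one. Their part in the jaw differences was not tested.

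For Mmp13, Mmp9 and Timp1 the mandible effects of -5.38, -2.22 and -1.59 log2 were larger than the maxilla effects of -2.48, -1.07 and -0.68. The differences did not pass (adjusted p 0.323, 0.160 and 0.0810). Several control maxilla arrays of Mmp13 and most of its mutant arrays lay near or below the filter level. This limits the fall of Mmp13 that could be measured in the maxilla. The jaw difference of Timp1 passed with the number as a random block (0.0214) or a fixed block (0.0190), with the regions averaged first (0.0365) and with array weights (0.0485). It also passed without the 4 mutant arrays numbered 3 (0.00433), without mutant distal maxilla array 2 (0.0434) and without mutant proximal mandible array 3 (0.0150). That of Mmp9 passed without mutant proximal mandible array 3 (0.0234). For Adamts8 the effects were -0.55 and -0.53 log2, each ± 0.08.

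**Figure D3:**
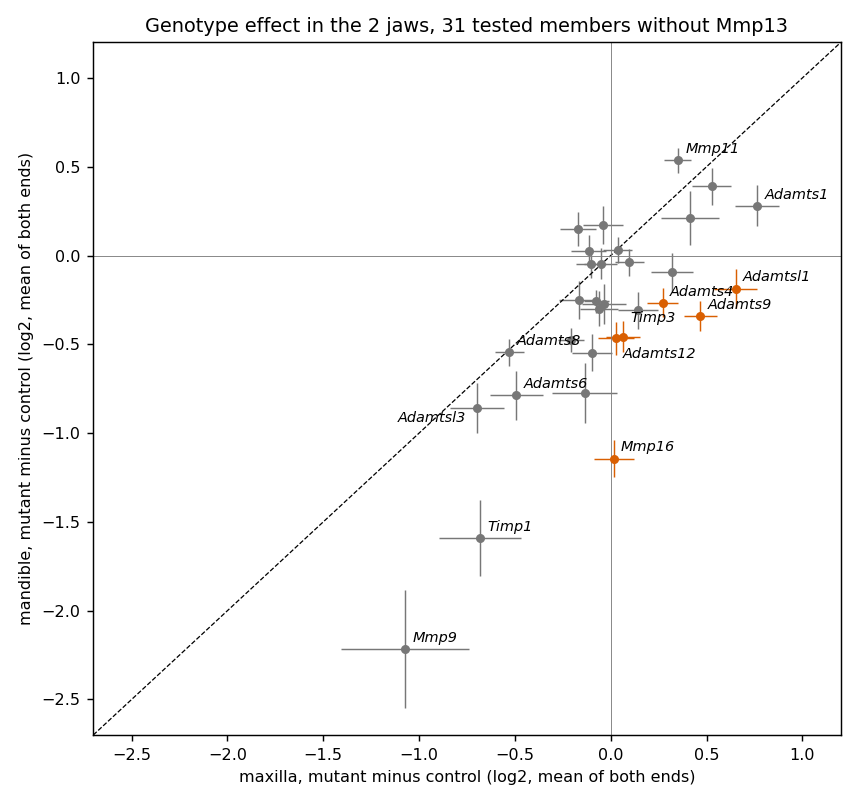
Mutant minus control log2 change averaged over both ends in the maxilla (horizontal axis) and mandible (vertical axis) for 31 tested members; bars are 1 SE, orange marks members with a called difference between jaws, and Mmp13 (-2.48, -5.38) lies off the plot. The 6 orange points lie below the dashed line of equal effect, with Mmp16 farthest at 0.02 and -1.14.

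**Figure D4:**
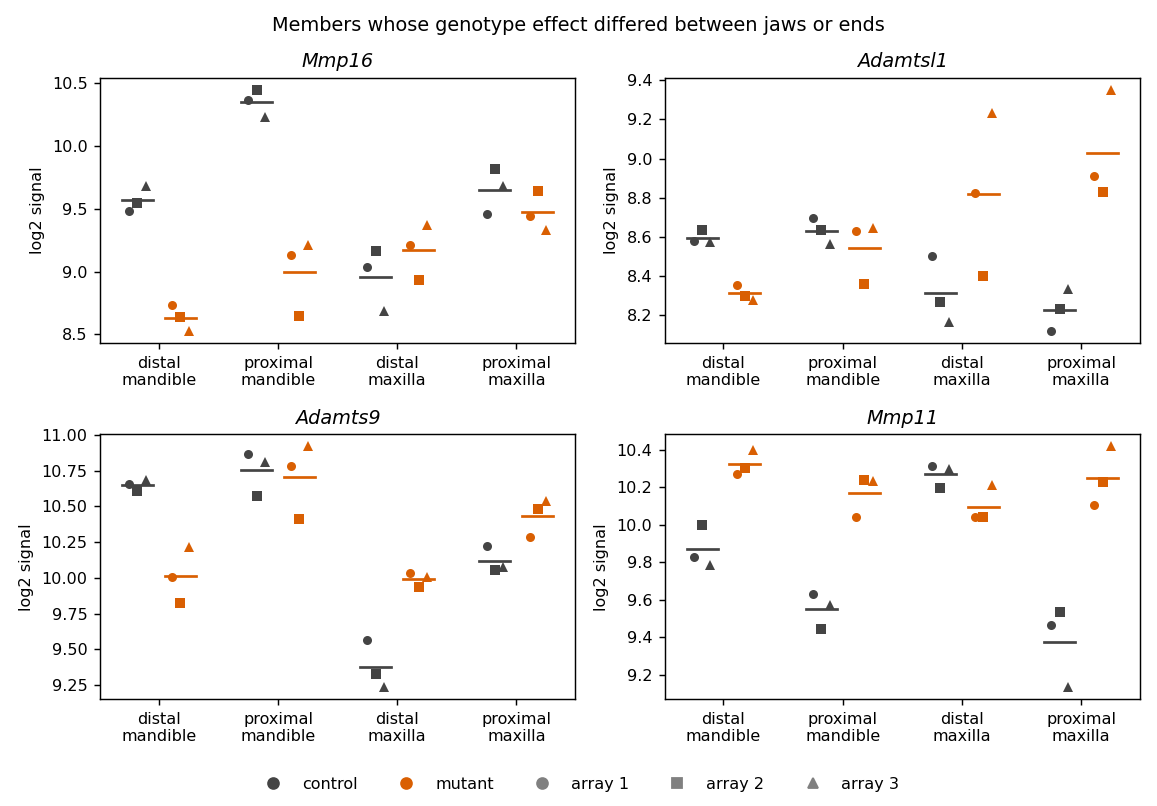
Log2 signal of Mmp16, Adamtsl1, Adamts9 and Mmp11 on each array (points, shape by array number) in the 8 groups, with the group mean as a line. Mmp16 differs between genotypes in the mandible but overlaps in the maxilla, Adamts9 is lower in mutant distal mandible and higher in mutant distal maxilla, and Mmp11 of control distal maxilla (10.20 to 10.31) lies within the range of the mutant arrays (10.04 to 10.42).

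The distal and proximal ends differed in the effect for 1 member, Mmp11, where 0.115% of all genes differed, 0.043% more positive and 0.0717% more negative distally. The mutant minus control change of Mmp11 was 0.14 in the distal and 0.75 in the proximal ends, a difference of -0.61 ± 0.10 (adjusted p 0.0211). Averaged over both jaws, its distal minus proximal difference was 0.61 log2 in controls and -0.0014 in mutants. With the regions averaged first as a replicate block, 3 members passed, Mmp11, Adamtsl3 and Mmp16. The Mmp11 call was lost without control proximal mandible array 2 (0.0596), control distal maxilla array 3 (0.0525) or mutant distal mandible array 2 (0.0549). The median end difference of the oral and skin epithelium genes was -0.68 log2, with 0 of 6 called, and in controls 4 of 6 were higher distally in each jaw (medians 1.35 in the mandible and 1.52 in the maxilla). Their part in the Mmp11 end difference was not tested.

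In control jaws 18 members were higher in the mandible and none was lower, where 34.7% of all genes differed, 16.6% higher and 18.1% lower. An unadjusted p under 0.05 was reached by 21 of the 32 tested members, and the share of all genes at that threshold is not given here. The member median was 0.29 log2 and that of all genes 0.01. Mmp13 was 3.36 ± 1.14 log2 higher (adjusted p 0.0277), Mmp9 was 2.12 ± 0.33 higher (5.66e-05) and Timp1 was 1.48 ± 0.22 higher (2.65e-05). Mmp13 of the control maxilla read 4.59 to 10.53 over its 6 arrays and of the control mandible 10.75 to 11.79, and its call was lost without control distal mandible array 3 (0.0553), control distal maxilla array 2 (0.0801), control proximal maxilla array 1 (0.0515) or control proximal maxilla array 2 (0.0779). The arrays of Mmp9 and Timp1 did not overlap between jaws.

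Among the other members higher in the control mandible were Adamts9 (0.95 log2), Adamts18 (0.90), Mmp23 (0.67), Mmp16 (0.65) and Adamts8 (0.64). The 3 Adamts9 probe sets past the filter ran from 0.21 to 0.95. In mutants the jaw difference was 0.45 for Mmp13, 0.97 for Mmp9, 0.57 for Timp1, 0.15 for Adamts9 and -0.51 for Mmp16, and it was 0.62 for Adamts8. Most mutant Mmp13 arrays of both jaws lay below the filter level, so its difference rests partly on such values. The mandible and maxilla controls also differed in muscle genes, all 7 of 7 higher in the mandible, in osteoclast genes, 5 of 6 higher, in osteoblast genes, 4 of 5 higher, in tendon genes, 5 of 5 higher, and in hypertrophic chondrocyte genes, 4 of 4 higher. Nasal epithelium genes (4 of 4 lower, median -3.58 log2) and neuron and glia genes (4 of 4 lower, -2.57) went the other way. The part of these in the jaw difference was not tested.

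**Figure D5:**
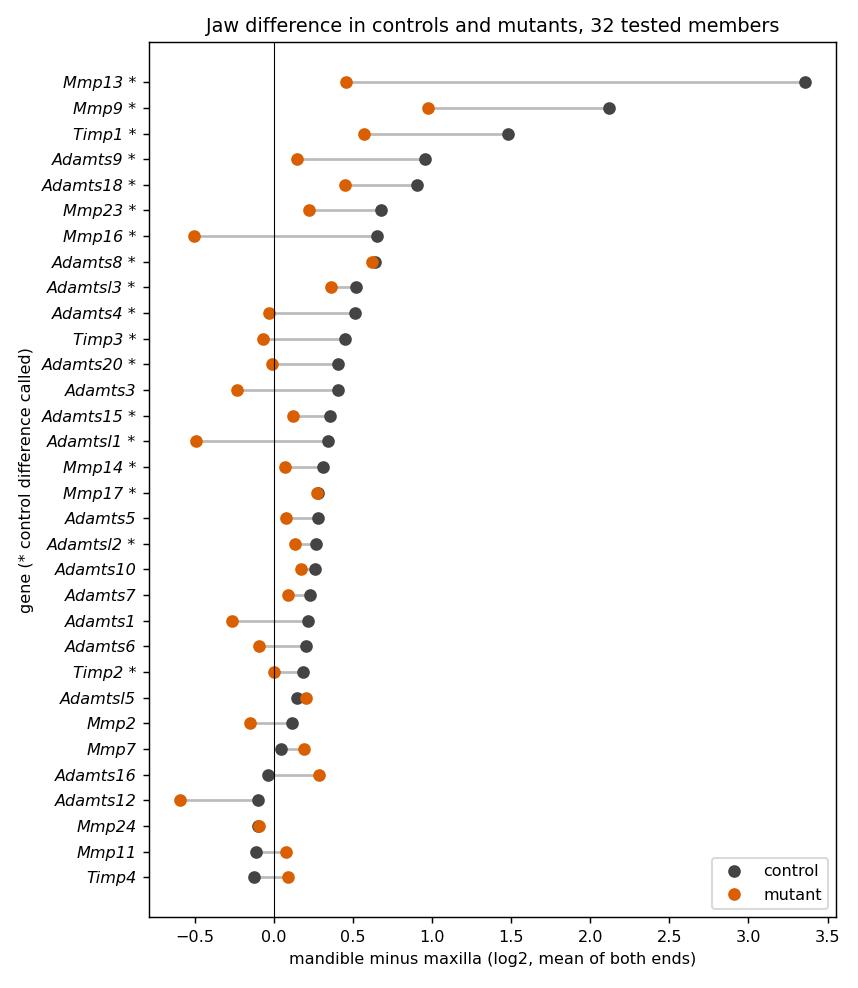
Mandible minus maxilla log2 difference, averaged over both ends, of the 32 tested members in controls (grey) and mutants (orange); an asterisk marks a called control difference. All 18 called differences are to the right of 0 in controls, from 0.18 (Timp2) to 3.36 (Mmp13), and for Mmp16 the mutant point lies at -0.51.

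Between the ends of the control mandible, 3 members differed, 1 higher and 2 lower distally, where 5.45% of all genes differed, 2.91% higher and 2.54% lower; the count was 6 with the number as a random replicate block. Adamts20, a versican-cleaving enzyme, was 0.99 ± 0.16 log2 higher distally (adjusted p 0.000596), with arrays of 10.75, 10.65 and 10.69 against 9.88, 9.55 and 9.69. Mmp16 was 0.78 lower distally (-0.78 ± 0.15, adjusted p 0.00336), and Adamts12 was -0.51 (0.0264), though the Adamts12 call was lost with the mean of all probe sets (0.0867) and without any single one of the control mandible arrays (0.0537 to 0.110). Timp1, at -0.93 log2, was not called in the fit of all arrays. It was called with the number as a random (limma adjusted p 0.0214) or fixed block (0.01755), with array weights (0.00118) and with only the groups compared (0.000402). It was not called with quantile normalization, other filters, probe set means or a sex score. Between the ends of the control maxilla, 9 members differed, 2 higher and 7 lower distally, where 10.9% of all genes differed, 4.92% higher and 5.99% lower. Mmp11 was 0.89 ± 0.10 higher distally (adjusted p 7.61e-06) and Adamts18 0.48 higher. Among the 7 lower members were Adamts5 (-0.76), Adamts3 (-0.75), Adamts9 (-0.74) and Mmp16 (-0.69), and the 3 Adamts9 probe sets ran from -0.74 to 0.02. The Adamts3 difference was -0.32 without control distal maxilla array 3, and that of Adamts18 was 0.32 without control proximal maxilla array 2. The count fell to 3 without control distal maxilla array 3 or control proximal maxilla array 2. Without the first, Adamts5 (0.163), Adamts3 (0.317) and Adamts18 (0.196) lost their calls, and without the second Adamts5 (0.0768), Adamts3 (0.0890) and Adamts18 (0.210) did. Adamts3 (adjusted p 0.0494) and Adamts18 (0.0421) lay close to the threshold in the fit of all arrays, and kept their calls in 5 and 15 of the 24 fits that left out 1 array.

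Genes that work with these enzymes were described by lists chosen for this tissue. Their counts stand beside 25.2% of all genes higher and 15.3% lower in the mean over regions. All list results for that mean, here and above, come from the fit without blocks, which treats the regions of a genotype and number as separate arrays. Averaging the regions first lowered the count of members from 20 to 11, and list results under that setting are not given here. Of 14 tested matrix substrates 10 fell and 1 rose in the mean over regions, with a list median of -0.47 log2 against 0.02 for all genes. Comp, a cartilage glycoprotein that Adamts7 cleaves, fell by 3.01 ± 0.31 log2 (limma adjusted p 5.89e-07), Eln, or elastin, by 1.10 ± 0.12, and Fn1, or fibronectin, by 0.58 ± 0.06. Of 11 activators and other inhibitors 4 fell and 2 rose. Pcsk6, a proprotein convertase, fell by 0.79 ± 0.08, Plaur, the urokinase receptor, by 0.55 ± 0.06, and Furin by 0.17 ± 0.05, while Plat, the tissue plasminogen activator, was 0.40 ± 0.10 higher.

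Of 11 Adam genes 3 fell and 1 rose, a share no larger than the 40.6% of all genes, and Adam12 was at -0.67 ± 0.13 log2. Of 9 tested regulators of Mmp transcription 3 fell and none rose: Sp7 (-0.84), which acts in osteoblasts, Fos (-0.53), a component of AP-1, and Mef2c (-0.30). In the cartilage list 6 of 7 genes fell, among them Acan, which is the aggrecan that Adamts enzymes cleave, at -2.23 ± 0.31. The cartilage list mean in the distal mandible was 11.36 to 11.58 in controls and 8.73 to 9.72 in mutants, with 5 of 7 genes lower. In the proximal mandible it was 11.27 to 11.61 and 9.97 to 11.15, with 1 of 7 lower, and in the distal maxilla 9.76 to 12.24 and 9.61 to 10.51, with none called. In the proximal maxilla, where Adamts1, Adamts4 and Adamts7 rose, it was 12.32 to 12.37 and 7.86 to 10.72, with 6 of 7 lower. The part of the cartilage genes in the Adamts results was not tested.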

How the data were processed

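Total RNA of 24 mouse jaw samples was measured on Affymetrix-type arrays with 45101 probe sets, and the deposited values are on a log2 scale after RMA, per the submitters' processing notes; the log base was read from the values (3.29 to 14.86), and the RMA version is not given in the sources used here. Probe sets were named from the platform annotation: 34945 had 1 symbol, and control probe sets were dropped. 1 probe set per gene, that of the highest mean, was kept, and 13948 of 18193 genes were tested.

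The fit used limma 3.58.1 in R 4.3.3 with 1 mean per group over all 24 arrays, eBayes with a trend, and Benjamini-Hochberg adjustment over all tested genes at 0.05; it was tested on simulated data. Tables and plots used pandas 2.3.3 and matplotlib 3.10.9 in Python 3.11.15. Values in every array are given for Mmp13, Adamts8, members called in at least 2 regions and up to 3 largest called members in each direction of a comparison; others are given by counts or ranges. Up to 4 genes of each other list were named by their statistic. Members and lists were chosen with earlier results of these data known.

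Arrays of a genotype and number were checked for pairing by the correlation of their deviations from the group means. Every r was over 0.1 for the mean over regions (0.163, 0.129 and 0.361), the difference between ends (0.149, 0.139 and 0.255), the control jaws (0.545, 0.258 and 0.122) and the control mandible ends (0.681, 0.329 and 0.501), and not for the other reported comparisons. Between mutant groups alone it was over 0.1 for the mandible ends (0.270 to 0.546), the maxilla ends (0.600 to 0.740) and the jaws at the distal (0.206 to 0.359) and proximal (0.152 to 0.254) end. Block fits, other filters, probe set means, array weights, quantile normalization, a sex score, fewer groups and left-out arrays were tried as alternatives.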

Additional observations from a re-analysis of the deposited data

Results flagged for a closer look

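The effect of the mutation differed between mandible and maxilla by a direct test for Mmp16 (-1.16 log2, mandible minus maxilla), Adamtsl1 (-0.84), Adamts9 (-0.81), Adamts4 (-0.54), Timp3 (-0.52) and Adamts12 (-0.49). It differed between distal and proximal ends by a direct test for Mmp11 (-0.61 log2, distal minus proximal). All values are limma differences of mutant minus control changes with an adjusted p under 0.05. With the regions averaged first as a replicate block, the jaw differences of Adamts4 (adjusted p 0.0809) and Timp3 (0.0917) were not called. The 3 Adamts9 probe sets past the filter ran from -0.83 to -0.07 for the jaw difference.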

How the results depend on the processing

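Of 96 called values of members, 52 kept their call under every alternative and every left-out array, 64 under every alternative, 65 under every left-out array, and none reversed; of 224 values not called, 67 changed sign and 53 gained a call in some setting. In the distal mandible 12 members became 20 with array weights and 19 with only the groups compared. In the distal maxilla 3 became 5 with array weights, 0 with only the groups compared and 6 without the 4 mutant arrays numbered 3, an alternative chosen after seeing the data; in the proximal maxilla 8 became 2 with only the groups compared. In the control mandible ends 3 became 10 with array weights, 9 with only the groups compared, 6 with the random block, 5 without both mutant maxilla arrays numbered 3 and 5 without the 4 mutant arrays numbered 3, and in the control maxilla ends 9 became 4 with only the groups compared. The cause was not tested. Shares of all genes are given throughout only for the fit of all arrays without blocks, and not for the alternatives. With the replicate number as a block, the mean over regions went from 20 to 11 (regions averaged first), the difference between ends from 1 to 3, and the difference between jaws from 6 to 11 (random block) or 5, of which 4 were shared (averaged first). As a fixed block it kept every main call, with 17, 18, 4 and 11 members in the regions. The correlations do not show that the numbers pair the arrays of the regions, the jaw difference or the control maxilla ends. Still, 6 of 6 profiles of the jaw difference correlated best with their own number. Within each genotype the Xist and Y-linked pattern followed the number in every region. Between genotypes, arrays of the same number differed in it. The averaged fits of the 2 differences used no trend, and they exist only where all regions enter; only the groups compared gave no value there. Leaving out 1 array gave 8 to 16 members in the distal mandible, 13 to 17 in the proximal mandible, 0 to 4 in the distal maxilla, 6 to 10 in the proximal maxilla, 17 to 20 in the mean, 5 to 10 for the jaws, 0 to 1 for the ends, 15 to 19 for the control jaws, 2 to 4 for the control mandible ends and 3 to 10 for the control maxilla ends. The distal maxilla had 1 without control array 3 and 0 without mutant array 1, and the control maxilla ends had 3 without control distal array 3 or control proximal array 2.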
